A study of Mus musculus with 9 samples.

Results

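The core autophagy machinery and its cargo receptors were followed across 3 groups of a mouse tumour cell line that differ in exposure to rapamycin. Autophagy is the pathway by which a cell encloses parts of its cytoplasm in a double membrane, the autophagosome, and delivers them to the lysosome for breakdown. The set was defined by name as 35 genes, and every probe set whose single gene symbol was one of these names was taken. Of the 35 genes, 34 had such a probe set, 82 probe sets in all, and all 34 passed the filter on dim probe sets and were tested among 12715 genes. Optn was not analysed here. Each gene was represented by its brightest probe set, so its values are those of 1 probe set per array unless others are named.

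Total RNA was measured on 9 arrays, 3 per group. The resistant group was RR1, a line selected from BC3H1 over 6 months with rapamycin at 1 uM and constantly held in that dose. The sensitive rapamycin group was BC3H1, a mouse brain tumour line with myogenic properties, given 100 nM rapamycin for 24 h, and the sensitive DMSO group was BC3H1 given the solvent DMSO for 24 h. The labels describe culture in medium with serum. Dose and length of exposure differ between both rapamycin groups, and so does the line. The resistant group was 1 line and all its arrays carried the drug, so the line, the long culture and the drug itself cannot be told apart in it. Whether a group's arrays stem from separate cultures is not stated in the labels, so p-values reflect only array-to-array spread, possibly technical.

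Rapamycin inhibits mTOR complex 1, a kinase complex that holds autophagy back in fed cells by phosphorylating the ULK kinase complex and Atg13. When that brake is released, the ULK complex activates a class III phosphatidylinositol 3-kinase, whose lipid product PI3P recruits WIPI proteins, and membrane grows by lipid transfer through Atg2 proteins and scrambling by Atg9a and Vmp1. A pair of ubiquitin-like conjugation systems, built from Atg7, Atg10, Atg3, Atg12, Atg5 and Atg16l1, then attaches the Atg8 proteins (the LC3 and GABARAP families) to the membrane. Receptors such as Sqstm1 (p62), Nbr1 and Tax1bp1 carry ubiquitin-marked cargo to the Atg8 proteins and are degraded with it. The transcripts measured here are the templates of these proteins. Autophagic activity itself was not measured.

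The median signal was 66.0 on the third DMSO array, against 33.3 to 44.2 on the other 8 arrays, and values without it are given where leaving it out changed a member's call or moved a called value by over 1.5 times. No 2 arrays held identical values. Of 15 muscle markers 11 were above the filter, and their summed signal, over all 15, ran from 8885 to 10545 on the resistant arrays, from 27334 to 27517 on the sensitive rapamycin arrays and from 22118 to 29897 on the DMSO arrays. Acta2 and Tagln carried most of it, while Myod1, Myf6, Mef2c and Chrnd were below the filter. Myog went against the sum, with mean signals of 98.9 in resistant cells, 17.8 in sensitive rapamycin cells and 6.50 in DMSO cells. Of 9 neural and glial markers 8 were above the filter, led by Nes and Tubb3, with summed signals of 380 to 525 on the resistant arrays, 1073 to 1311 on the sensitive rapamycin arrays and 1003 to 1728 on the DMSO arrays, while Olig2 was below it. Markers of leukocytes, endothelium and epithelium summed to 26.2 to 378 per list and array, and Ptprc, Itgam, Cd3e, Pecam1, Cdh5, Tek, Cdh1 and Krt18 were below the filter. Cd68, Aif1, Kdr, Epcam and Krt8 were above it, the highest group mean being 138 for Epcam in DMSO cells. RNA integrity was read from the Actb control probe sets, as 3-prime minus 5-prime on the log2 scale. This difference was 0.33 ± 0.02 on the resistant arrays, 0.19 ± 0.04 on the sensitive rapamycin arrays and 0.17 ± 0.01 on the DMSO arrays (SD, n = 3 each). The resistant arrays lay above both others (p = 0.1 against each in a two-sided exact permutation test, which cannot go lower with 3 against 3). The same difference for Gapdh was -0.29 ± 0.04 on the resistant arrays, -0.36 ± 0.04 on the sensitive rapamycin arrays and -0.31 ± 0.02 on the DMSO arrays (SD, n = 3 each). For Gapdh the exact permutation p was 0.4 between resistant and DMSO arrays and 0.1 in both other pairs. The lower muscle and neural marker sums and the higher Actb difference were shared by the resistant arrays in every resistant result given here, and their part in those results was not tested.

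In sensitive cells, 24 h of rapamycin was accompanied by a modest rise of many autophagy transcripts, including every Atg8 family member and every receptor tested. Of 34 genes, 16 were higher and 3 lower than in DMSO cells at an adjusted p under 0.05 in limma, which is 47.1% and 8.82% of the set, while 20.4% and 15.2% of all 12715 genes were called higher and lower. Of all genes 35.6% were called in either direction, against 55.9% of the set. Without the third DMSO array 18 were higher and 3 lower. The median log2 change was 0.38 over the set and 0.03 over all genes tested. The changes ran from -1.25 for Atg4d to 1.23 for Atg14, and 2 genes changed at least 2-fold on the log2(signal + 16) scale (5.88% of the set, 6.04% of all genes). In 20 of the 34 genes the sensitive rapamycin and DMSO arrays did not overlap, 18 with all rapamycin arrays higher, and this held for 43.2% of all genes. In bulk RNA, a transcript that is lower in every cell and a smaller share of cells that carry it cannot be told apart.

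In the resistant line the set leaned the other way. Against DMSO cells, 5 genes were higher and 16 lower, 14.7% and 47.1% of the set against 25.9% and 25.8% of all genes, and 51.8% of all genes were called in either direction against 61.8% of the set. The median log2 change was -0.24, against -0.07 over all genes. With each array centred on its 75th percentile 7 genes were higher and 13 lower. The same centring moved all genes from 3299 higher and 3282 lower to 3776 higher and 2754 lower. The count of 5 higher genes was 3 without the third DMSO array, without any 1 resistant array or with the replicate number as a block. It was 2 when a gene's probe sets were averaged. The range ran from -1.53 for Wipi1 to 1.33 for Atg2b, and 7 genes changed at least 2-fold (20.6% of the set, 15.4% of all genes). In 21 genes the resistant and DMSO arrays did not overlap, 14 with all resistant arrays lower, and this held for 58.6% of all genes.

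Set directly against sensitive cells in rapamycin, the resistant cells had lower signals in 19 genes and higher signals in 4, with 11 not passing the test. These are 55.9% and 11.8% of the set, against 30.1% and 26.4% of all genes, and 67.6% of the set was called in either direction against 56.5% of all genes. The median log2 change was -0.52 in the set and -0.08 over all genes. Centring on the 75th percentile moved the median of all genes by 0.13 to 0.05 and that of the set to -0.39. Changes ran from -2.01 for Ulk2 to 0.91 for Atg2b, and 6 genes changed at least 2-fold (17.6% of the set, 24% of all genes). In 27 genes the resistant and sensitive rapamycin arrays did not overlap, 23 of them with all resistant arrays lower, while 65.4% of all genes showed no overlap in either direction. The 3 comparisons share groups of arrays, so their values for a gene are given side by side and are not independent of each other.

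**Figure D1:**
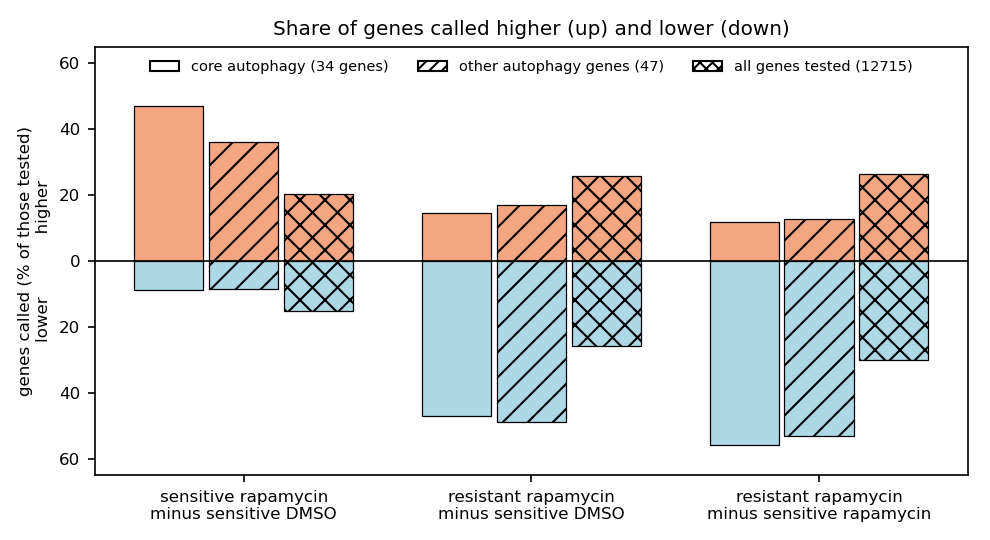
Share of genes called higher (bars above 0) and lower (bars below 0) at a Benjamini-Hochberg adjusted p under 0.05 in limma, in percent of the genes tested, for the core autophagy set, for a second list of autophagy genes and for all genes. In sensitive rapamycin cells 47.1% of the core set was called higher than in DMSO cells, and in resistant cells 55.9% was called lower than in sensitive rapamycin cells.

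**Figure D2:**
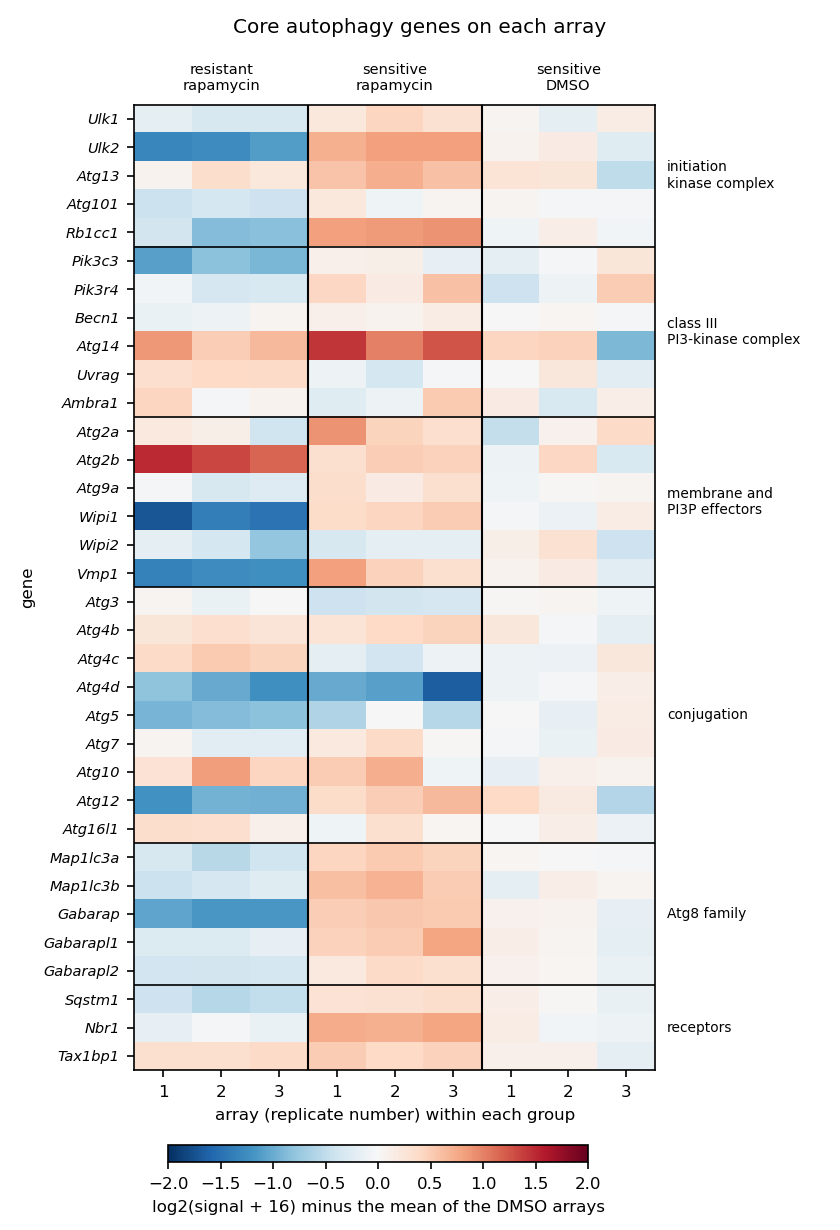
Each of the 34 genes (rows, in order of role) on each of the 9 arrays (columns), as log2(signal + 16) minus the mean of the 3 DMSO arrays; red is higher and blue is lower. The Atg8 family rows are blue on all resistant arrays and red on all sensitive rapamycin arrays, and the third DMSO array departs from the other DMSO arrays in Atg13, Atg14 and Atg12.

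In the initiation complex, Ulk2 had the widest gap of any member between resistant and sensitive rapamycin cells, while the median change of the complex in that comparison was -0.59. Ulk2, which with Ulk1 encodes the kinase that starts autophagosome formation, had signals of 165, 172 and 191 on the resistant arrays, 716, 774 and 778 on the sensitive rapamycin arrays and 454, 487 and 364 on the DMSO arrays. The groups were fully separated, with the resistant arrays lowest and the sensitive rapamycin arrays highest. Its log2 change was 0.79 ± 0.12 (SE) in sensitive rapamycin against DMSO cells (limma adjusted p = 3.95e-05), -1.22 ± 0.12 in resistant against DMSO cells (adjusted p = 9.59e-08) and -2.01 ± 0.12 between resistant and sensitive rapamycin cells (adjusted p = 7.38e-11). Both of the other Ulk2 probe sets above the filter were also lower in the resistant cells than in DMSO cells, at -0.83 and -1.17. Ulk1 did not pass against DMSO in sensitive cells (0.32 ± 0.15, adjusted p = 0.101, and 0.40 with adjusted p = 0.0421 without the third DMSO array) or in resistant cells (-0.27 ± 0.15, adjusted p = 0.127). Between resistant and sensitive rapamycin cells Ulk1 was lower (-0.59 ± 0.15, adjusted p = 0.00189), a call lost when its probe sets were averaged (-0.32, adjusted p = 0.201).

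Rb1cc1 encodes FIP200, the scaffold of the ULK complex. It had signals of 382, 264 and 271 on the resistant arrays, 891, 907 and 937.5 on the sensitive rapamycin arrays and 467, 546 and 479 on the DMSO arrays, again without overlap between any of the groups. The log2 change was 0.86 ± 0.12 after 24 h of rapamycin (adjusted p = 2.34e-05) and -1.55 ± 0.12 between resistant and sensitive rapamycin cells (adjusted p = 3.99e-09). Against DMSO cells the resistant line was lower by this probe set (-0.69 ± 0.12, adjusted p = 0.000106), but the other probe set above the filter gave 0.17 (adjusted p = 0.555). Their average did not pass (-0.26, adjusted p = 0.11). Atg13, the regulatory subunit that mTOR complex 1 phosphorylates, rose in sensitive rapamycin cells by 0.63 ± 0.17 (adjusted p = 0.00835), and by 0.38 (adjusted p = 0.024) without the third DMSO array, where its signal was 151 against 270 and 263 on the other DMSO arrays. Between resistant and sensitive rapamycin cells Atg13 changed by -0.42 ± 0.17 (adjusted p = 0.048). That call was lost without any 1 sensitive rapamycin array (adjusted p = 0.0783, 0.143 and 0.0814), without the first or the third resistant array (0.16 and 0.0928) and under either rescaling (0.195 and 0.228). Atg101, the partner that stabilises Atg13, did not change detectably in sensitive cells (0.06 ± 0.11, 95% interval -0.17 to 0.29) and was lower in resistant cells than in DMSO cells (-0.40 ± 0.11, adjusted p = 0.00558). In the complex as a whole, 3 of 5 genes rose with 24 h of rapamycin, 3 were lower in the resistant line than in DMSO cells and all 5 were lower than in sensitive rapamycin cells. Of all genes 20.4% were higher, 25.8% lower and 30.1% lower in these comparisons, and 51.8% were called in either direction in the second, near the 60% of this complex.

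The lipid kinase complex moved less as a group, and its members went in different directions. Pik3c3, the catalytic subunit VPS34, had signals of 116, 143 and 134 on the resistant arrays, 284, 288 and 233 on the sensitive rapamycin arrays and 229, 257 and 315 on the DMSO arrays. The resistant arrays lay below all others, which overlapped each other. The change in sensitive cells was 0.01 ± 0.15 (adjusted p = 0.96, 95% interval -0.31 to 0.34), and in the resistant line it was -0.94 ± 0.15 against DMSO cells (adjusted p = 5.75e-05) and -0.95 ± 0.15 against sensitive rapamycin cells (adjusted p = 3.51e-05). Atg14, the subunit that brings VPS34 to the site where autophagosomes form, read 142, 105 and 119 on the resistant arrays, 216, 158 and 189.6 on the sensitive rapamycin arrays and 101, 103 and 30.3 on the DMSO arrays. It rose with 24 h of rapamycin by 1.23 ± 0.29 (adjusted p = 0.00302), the largest rise of the set, and by 0.78 (adjusted p = 0.00317) without the third DMSO array, which held the low value. In the resistant line Atg14 was 0.67 ± 0.29 above DMSO cells (adjusted p = 0.0659). This value rested on the third DMSO array: it was 0.22 (adjusted p = 0.342) without that array, and it passed without the first (0.89, adjusted p = 0.0242) or the second (0.90, adjusted p = 0.0226). Atg14 was -0.56 ± 0.29 from sensitive rapamycin cells (adjusted p = 0.117, and 0.00739 without the third DMSO array).

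Uvrag, which replaces Atg14 in the VPS34 complex of endosomes, was highest in the resistant line. After 24 h of rapamycin Uvrag did not pass (-0.17). Its signals were 666, 697 and 688 on the resistant arrays, 489, 405 and 508 on the sensitive rapamycin arrays and 526, 614 and 446 on the DMSO arrays. All resistant arrays were above all others, by 0.37 ± 0.11 against DMSO cells (adjusted p = 0.0104, and 0.0527 without the third DMSO array) and by 0.54 ± 0.11 against sensitive rapamycin cells (adjusted p = 0.000497). Becn1, the Beclin 1 subunit, lay between 1354 and 1656 on all 9 arrays. By this probe set it passed in none of the 3 comparisons, with changes of 0.11 ± 0.07, -0.06 ± 0.07 and -0.17 ± 0.07 (adjusted p = 0.257, 0.524 and 0.0521). The third of these passed without the third DMSO array (0.0327) or the third resistant array (0.0254), and the second-brightest Becn1 probe set was lower in resistant than in DMSO cells (-0.45, adjusted p = 0.000434) and than in sensitive rapamycin cells (-0.59, adjusted p = 1.93e-05). Averaging the 5 Becn1 probe sets gave -0.44 (adjusted p = 0.0072) and -0.53 (adjusted p = 0.00153) in these comparisons. Pik3r4, the VPS15 subunit, was lower in resistant than in sensitive rapamycin cells (-0.62 ± 0.23, adjusted p = 0.0284). It lost that call without the first or the third sensitive rapamycin array (0.0726 and 0.118), without the second or the third resistant array (0.0843 and 0.0785) and under either rescaling (0.0656 and 0.0954), and without the third DMSO array it was higher in sensitive rapamycin than in DMSO cells (0.64, adjusted p = 0.0185). Ambra1, a regulator of Beclin 1, passed in no comparison, with changes between 0.06 and 0.15.

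Against DMSO cells, genes of membrane growth held the largest fall of the set in the resistant line (Wipi1), the next largest (Vmp1) and the largest rise (Atg2b). Wipi1, a PI3P-binding protein of the forming autophagosome, had signals of 238, 304 and 283 on the resistant arrays, 1055, 1105 and 1167 on the sensitive rapamycin arrays and 805, 750 and 905 on the DMSO arrays. The 3 groups did not overlap. Its log2 change in resistant cells was -1.53 ± 0.10 against DMSO cells (adjusted p = 9.93e-10) and -1.96 ± 0.10 against sensitive rapamycin cells (adjusted p = 1.59e-11). Of its 6 probe sets 5 were called lower in both. The rise with 24 h of rapamycin was smaller (0.43 ± 0.10, adjusted p = 0.00258), and it did not pass when the probe sets were averaged (0.39, adjusted p = 0.0615).

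Vmp1, a phospholipid scramblase of the endoplasmic reticulum, read 1339, 1430.1 and 1462 on the resistant arrays, 6070.0, 4767 and 4322 on the sensitive rapamycin arrays and 3610.0, 3861 and 2927 on the DMSO arrays, with no overlap between groups. Its changes were 0.54 ± 0.11 after 24 h of rapamycin (adjusted p = 0.0012), -1.28 ± 0.11 in resistant against DMSO cells (adjusted p = 4.41e-08) and -1.82 ± 0.11 between resistant and sensitive rapamycin cells (adjusted p = 2.24e-10). The other Vmp1 probe set gave -0.20 (adjusted p = 0.109), -0.47 (adjusted p = 0.000287) and -0.27 (adjusted p = 0.0157). The rise in sensitive cells thus rested on 1 of 2 probe sets (0.17, adjusted p = 0.118, with their mean), and the resistant cells were lower by both.

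Atg2b, a lipid transfer protein that feeds the growing membrane, was the exception of this role. It had signals of 227, 201 and 176 on the resistant arrays, 92.0, 105 and 102 on the sensitive rapamycin arrays and 64.6, 98.2 and 53.3 on the DMSO arrays. The resistant arrays were above all others, by 1.33 ± 0.22 against DMSO cells (adjusted p = 5.22e-05) and by 0.91 ± 0.22 against sensitive rapamycin cells (adjusted p = 0.00151), and the second Atg2b probe set was also higher than in DMSO cells (0.91, adjusted p = 0.0355). In sensitive cells it did not pass (0.42 ± 0.22, adjusted p = 0.146), though it did without the second DMSO array (0.63, adjusted p = 0.0346), and it was 0.27 (adjusted p = 0.322) without the third. Its paralogue Atg2a passed in no comparison (0.56, -0.03 and -0.59). Without the third DMSO array it was higher after 24 h of rapamycin (0.75, adjusted p = 0.0307) and lower in resistant than in sensitive rapamycin cells (adjusted p = 0.0368, and 0.0422 without the first DMSO array). Atg9a, the membrane-spanning scramblase, was lower in resistant than in sensitive rapamycin cells (-0.48 ± 0.11, adjusted p = 0.00112). Wipi2, which recruits Atg16l1 to the membrane, had a change of -0.43 ± 0.16 in resistant against DMSO cells (adjusted p = 0.0355). This was lost without the first or the second DMSO array (adjusted p = 0.105, and -0.28 with 0.185), without the third resistant array (-0.27, adjusted p = 0.208), under either rescaling (0.106 and 0.0681) and when probe sets were averaged (-0.13, adjusted p = 0.368). Without the third DMSO array Wipi2 was lower after 24 h of rapamycin (-0.45, adjusted p = 0.0206). With all arrays the second Wipi2 probe set was called higher after 24 h of rapamycin (0.49, adjusted p = 0.0169).

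**Figure D3:**
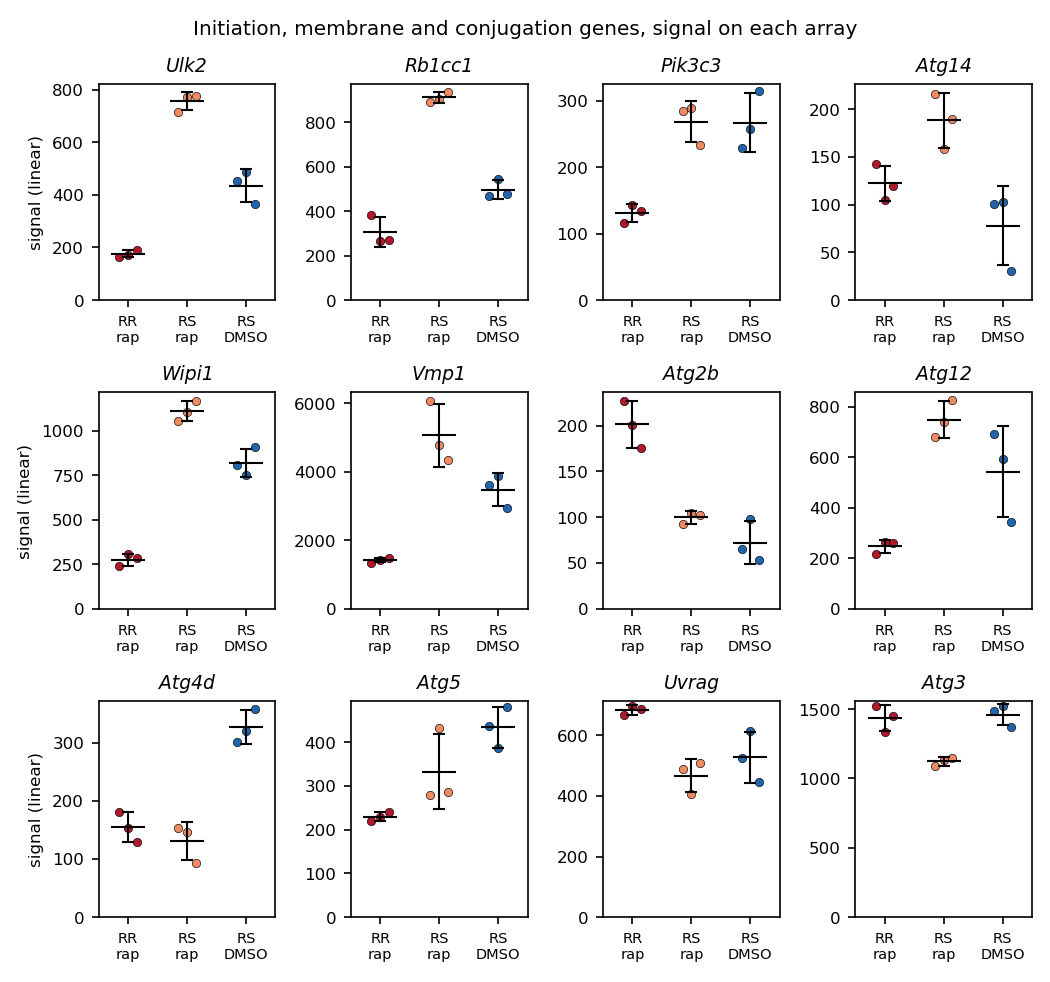
Linear signal of 12 machinery genes on each array (points), with the mean (line) and SD (whiskers) of 3 arrays, for resistant cells in rapamycin (RR rap), sensitive cells in rapamycin (RS rap) and sensitive cells in DMSO (RS DMSO). Ulk2, Rb1cc1, Wipi1 and Vmp1 show 3 separate levels, Atg2b and Uvrag are highest in the resistant cells, and Atg4d is at its highest in DMSO cells.

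The conjugation systems were mixed: with 24 h of rapamycin 2 of 9 genes rose and 3 fell, in resistant against DMSO cells 2 were higher and 3 lower, and against sensitive rapamycin cells 2 were higher and 2 lower. The shares called were 55.6%, 55.6% and 44.4%, against 35.6%, 51.8% and 56.5% of all genes, so in the resistant comparisons they lay near or below the share of all genes. Atg12, the ubiquitin-like protein joined to Atg5, had signals of 216, 262 and 261 on the resistant arrays, 679, 742 and 827 on the sensitive rapamycin arrays and 692, 594 and 343 on the DMSO arrays. The resistant arrays were below all others, with changes of -1.04 ± 0.18 against DMSO cells (adjusted p = 9.45e-05) and -1.54 ± 0.18 against sensitive rapamycin cells (adjusted p = 7.1e-07), and the second probe set gave -1.02 and -1.19. Leaving out the third DMSO array ended the call of Atg12 after 24 h of rapamycin (0.51 ± 0.18 with adjusted p = 0.0356, against 0.21 with 0.172). So did fits without the second or the third sensitive rapamycin array (0.0853 and 0.132) and under either rescaling (0.0611 and 0.0505). Atg5, its partner, read 219, 229 and 239 on the resistant arrays, 279.8, 432 and 286 on the sensitive rapamycin arrays and 437, 386 and 479 on the DMSO arrays. It was lower in the resistant line than in DMSO cells (-0.87 ± 0.15, adjusted p = 7.82e-05) and than in sensitive rapamycin cells (-0.48 ± 0.15, adjusted p = 0.00953), where the second sensitive rapamycin array held the high value and its removal ended the call (-0.29, adjusted p = 0.0764), as did quantile normalization (-0.37, adjusted p = 0.0588). The second-brightest Atg5 probe set was called in neither of these comparisons (-0.25 and 0.04, adjusted p = 0.119 and 0.831). The third-brightest was lower in both (-0.72 and -0.56, adjusted p = 0.00138 and 0.00839). The change of Atg5 in sensitive cells (-0.39 ± 0.15, adjusted p = 0.0477) passed by little. It was lost without the first or the third DMSO array (0.0964 and 0.133), the first or the third sensitive rapamycin array (0.199 and 0.187) or any resistant array (0.0562 to 0.0579). A pseudocount of 1 (0.0534), no filter on dim probe sets (0.0612) and eBayes without a trend (0.115) also ended it. So did the replicate number as a block (0.0568) and only the 6 arrays compared (0.0613). Neither other Atg5 probe set was called there (-0.29 and -0.17, adjusted p = 0.0978 and 0.494).

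Atg4 proteases trim Atg8 proteins before conjugation and release them from membranes afterwards. Atg4d had signals of 181, 153 and 129.7 on the resistant arrays, 153, 146 and 93.3 on the sensitive rapamycin arrays and 301, 321 and 359 on the DMSO arrays. Both rapamycin groups lay wholly below the DMSO arrays, by -1.02 ± 0.18 in resistant cells (adjusted p = 0.000142) and -1.25 ± 0.18 in sensitive cells (adjusted p = 3.59e-05), and they overlapped each other (0.23 ± 0.18, adjusted p = 0.306, 95% interval -0.15 to 0.62). Atg4c read 172, 192 and 179.8 on the resistant arrays, 112, 95.0 and 119 on the sensitive rapamycin arrays and 118, 117 and 154 on the DMSO arrays. It was higher in resistant than in sensitive rapamycin cells (0.66 ± 0.18, adjusted p = 0.00389, but 0.17 and 0.686 for its averaged probe sets). Against DMSO cells the call of Atg4c (0.45 ± 0.18, adjusted p = 0.0448) was lost without the first or the second DMSO array (0.115 and 0.12), the first or the third sensitive rapamycin array (0.0522 and 0.0514) or any resistant array (0.0769 to 0.14). Atg4b had signals of 487, 521 and 490.5 on the resistant arrays, 496, 544 and 564 on the sensitive rapamycin arrays and 483, 397 and 354 on the DMSO arrays. Both rapamycin groups lay above the DMSO arrays by this probe set. Atg4b was higher than in DMSO cells in sensitive rapamycin cells (0.38 ± 0.11, adjusted p = 0.0121, and 0.0527 without the third sensitive rapamycin array) and in resistant cells (0.28 ± 0.11, adjusted p = 0.0399). The second of these calls was lost without the second or the third DMSO array (0.0958, and 0.18 with 0.159), without any resistant array (0.0658 to 0.124) and for averaged probe sets (0.02, adjusted p = 0.861). The second-brightest Atg4b probe set was called in neither of these comparisons (0.24 and -0.23, adjusted p = 0.197 and 0.166). Between resistant and sensitive rapamycin cells Atg4b did not pass (-0.09). There its second-brightest probe set (-0.47, adjusted p = 0.00586) and the average (-0.28, adjusted p = 0.0192) were called lower.

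Atg3, the enzyme that hands Atg8 proteins to the membrane lipid, was lower in sensitive rapamycin cells than in both other groups. Its signals were 1521, 1333 and 1451 on the resistant arrays, 1088, 1130.2 and 1149 on the sensitive rapamycin arrays and 1485, 1519 and 1372 on the DMSO arrays. All sensitive rapamycin arrays were below all others, by -0.37 ± 0.08 against DMSO cells (adjusted p = 0.00078), and the resistant cells were above them by 0.35 ± 0.08 (adjusted p = 0.000629). Atg7, the activating enzyme of both systems, Atg10, the enzyme that transfers Atg12, and Atg16l1, the scaffold of the Atg12-Atg5 conjugate, passed in none of the 3 comparisons, with changes from -0.33 to 0.52. Centring on the 75th percentile called Atg16l1 higher in resistant than in DMSO cells (0.36, adjusted p = 0.0301) and quantile normalization called Atg10 (0.77, adjusted p = 0.0327).

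The Atg8 family moved as one in each comparison. All 5 genes were higher after 24 h of rapamycin (median log2 change 0.52), lower in resistant than in DMSO cells (median -0.37) and lower in resistant than in sensitive rapamycin cells (median -0.89). Of all genes, 20.4%, 25.8% and 30.1% were called in these directions. Gabarap had the widest span, with signals of 2475, 2291 and 2287 on the resistant arrays, 7224, 7481 and 7367 on the sensitive rapamycin arrays and 5459, 5403 and 4596 on the DMSO arrays. Its groups were fully separated, with changes of 0.52 ± 0.08 (adjusted p = 6.26e-05), -1.12 ± 0.08 (adjusted p = 2.59e-09) and -1.64 ± 0.08 (adjusted p = 7.35e-12) in the same order of comparisons. Map1lc3b, the LC3B commonly used to count autophagosomes, had signals of 3278, 3467 and 3728 on the resistant arrays, 6693, 7162 and 6238 on the sensitive rapamycin arrays and 3858, 4835 and 4565 on the DMSO arrays. It rose by 0.60 ± 0.09 with 24 h of rapamycin (adjusted p = 4.91e-05) and was lower in resistant cells by -0.33 ± 0.09 against DMSO (adjusted p = 0.00486, and 0.0665 after 75th percentile centring) and by -0.94 ± 0.09 against sensitive rapamycin cells (adjusted p = 7.21e-08). Its groups did not overlap. All 3 other Map1lc3b probe sets were higher in sensitive rapamycin than in DMSO cells, at 0.80, 0.73 and 1.67. The last was dim, with mean signals of 61.8 and 8.89 in these groups. The average of the 4 gave 0.95 there.

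Map1lc3a, the LC3A gene, had signals of 2691, 2294 and 2538 on the resistant arrays, 4528, 4853 and 4596 on the sensitive rapamycin arrays and 3441, 3357 and 3287 on the DMSO arrays, with changes of 0.47 ± 0.07, -0.42 ± 0.07 and -0.89 ± 0.07 and no overlap between groups. The second Map1lc3a probe set gave larger ones (0.82, -0.69 and -1.52). Gabarapl1, a GABARAP-like gene, read 1548, 1559 and 1673 on the resistant arrays, 2608, 2693 and 3257 on the sensitive rapamycin arrays and 2057, 1953 and 1657 on the DMSO arrays. The sensitive rapamycin arrays were above all others, while the resistant and DMSO arrays overlapped. Its changes were 0.59 after 24 h of rapamycin and -0.83 between resistant and sensitive rapamycin cells. Its call in resistant against DMSO cells (-0.24 ± 0.09, adjusted p = 0.0421) was lost without the first or the second DMSO array (0.173 and 0.115), the second sensitive rapamycin array (0.0503), the first or the second resistant array (0.116 and 0.112) and with centring on the 75th percentile (-0.14, adjusted p = 0.296). No filter on dim probe sets (0.0535), the replicate number as a block (0.0568) and eBayes without a trend (0.132) also ended it. The second Gabarapl1 probe set was called lower in resistant than in DMSO cells (-0.46, adjusted p = 0.00104). Gabarapl2, the GATE-16 gene, changed by 0.30 ± 0.08 (adjusted p = 0.00505), -0.37 ± 0.08 (adjusted p = 0.000547) and -0.67 ± 0.08 (adjusted p = 6.11e-07), and the first of these was lost for averaged probe sets (0.11, adjusted p = 0.474).

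Receptors rose together in sensitive cells and then differed in the resistant line. Nbr1, a receptor for ubiquitin-marked cargo, had signals of 1566, 1709 and 1609 on the resistant arrays, 2948, 2900.1 and 3057 on the sensitive rapamycin arrays and 1953, 1705 and 1644 on the DMSO arrays. It was 0.75 ± 0.08 higher after 24 h of rapamycin (adjusted p = 6.35e-07), and the resistant arrays overlapped the DMSO arrays (-0.11 ± 0.08, adjusted p = 0.231, and -0.18 with 0.0201 under quantile normalization). The second Nbr1 probe set was called lower in resistant than in DMSO cells (-0.28, adjusted p = 0.0338). Between resistant and sensitive rapamycin cells Nbr1 was lower by both probe sets (-0.86 and -1.05). Sqstm1, which encodes p62, read 3766, 3396 and 3591 on the resistant arrays, 6155, 6232 and 6471 on the sensitive rapamycin arrays and 5517, 5152 and 4530.5 on the DMSO arrays, 3 separate levels. Its changes were 0.31 ± 0.08 (adjusted p = 0.00578, lost at 0.17 and 0.281 for averaged probe sets), -0.49 ± 0.08 (adjusted p = 6.6e-05) and -0.81 ± 0.08 (adjusted p = 1.31e-07). The other Sqstm1 probe set in that average was dim, with mean signals of 34.8 in sensitive rapamycin cells and 34.7 in DMSO cells. Tax1bp1, a receptor of the same kind, was higher than in DMSO cells in both rapamycin groups, with signals of 1903, 1920.3 and 1998 on the resistant arrays, 2172, 2028 and 2108 on the sensitive rapamycin arrays and 1636, 1643 and 1330.2 on the DMSO arrays. Against DMSO cells it was 0.34 ± 0.08 higher in resistant cells (adjusted p = 0.00207) and 0.45 ± 0.08 higher in sensitive rapamycin cells (adjusted p = 0.0003), and the difference between the rapamycin groups did not pass (-0.11 ± 0.08, adjusted p = 0.262, but -0.20 with 0.0148 under quantile normalization). The resistant arrays nevertheless lay below all sensitive rapamycin arrays. Averaging its 4 probe sets ended the resistant call of Tax1bp1 (0.17, adjusted p = 0.282).

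**Figure D4:**
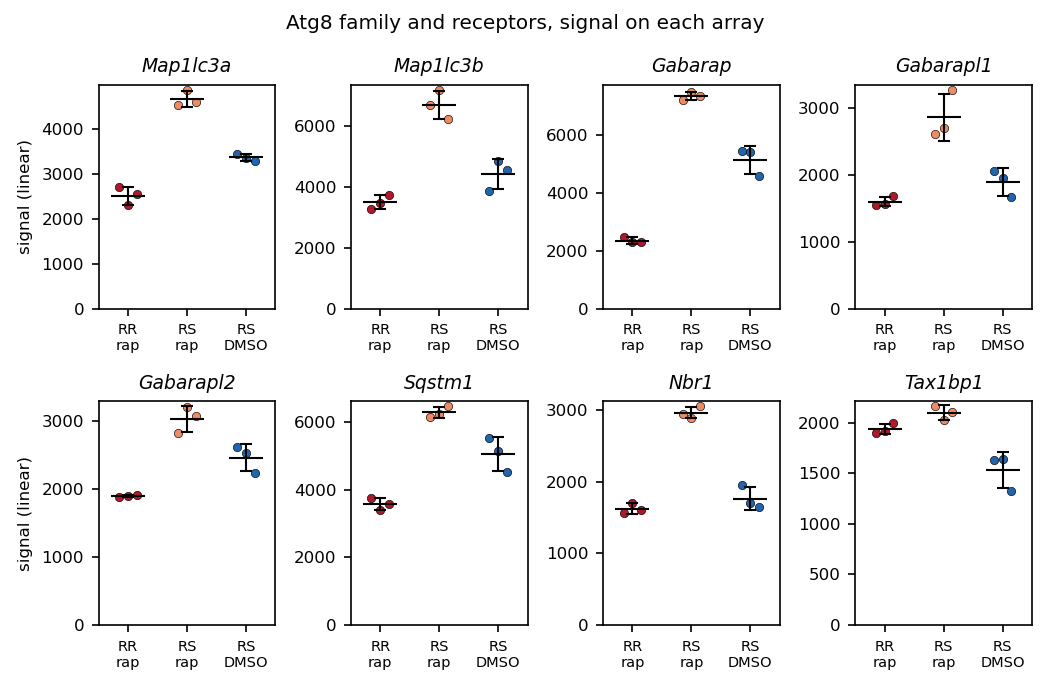
Linear signal of the 5 Atg8 family genes and 3 receptors on each array (points), with the mean (line) and SD (whiskers) of 3 arrays, in resistant cells in rapamycin (RR rap), sensitive cells in rapamycin (RS rap) and sensitive cells in DMSO (RS DMSO). All 8 genes are higher in sensitive rapamycin than in DMSO cells, and Tax1bp1 alone among them is called higher in the resistant cells than in DMSO cells.

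**Figure D5:**
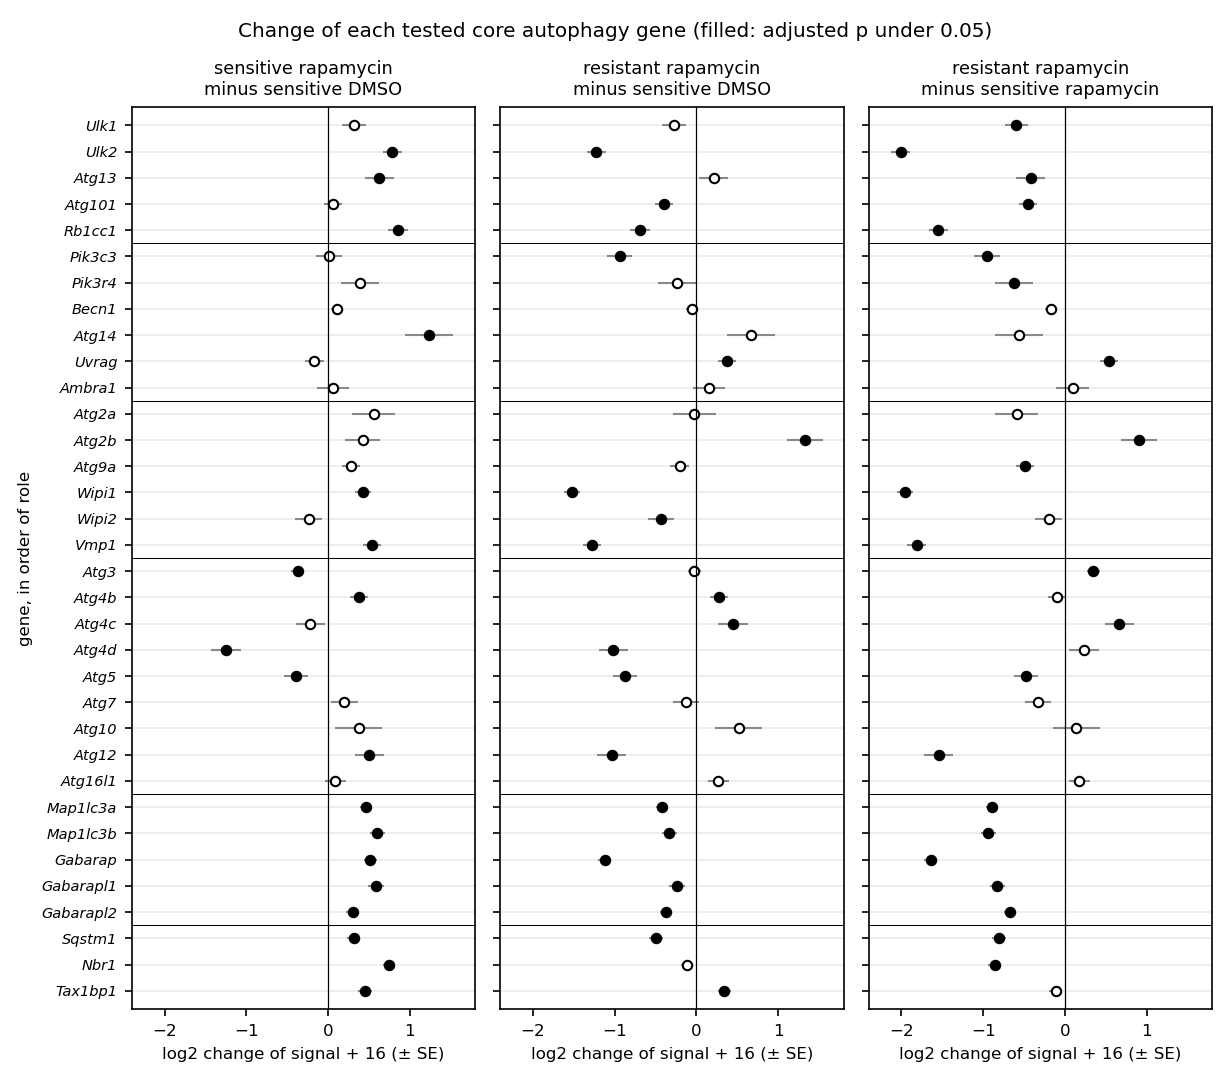
Log2 change of signal + 16 with its standard error for each of the 34 genes, grouped by role, in 3 comparisons; filled points have an adjusted p under 0.05 in limma. In sensitive rapamycin against DMSO cells 16 filled points lie right of 0 and 3 left of it, and in resistant against sensitive rapamycin cells 4 lie right and 19 left.

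With all arrays, probe sets of 1 gene did not oppose each other in any call. Where a probe set was not called, signs could differ, as for Vmp1 after 24 h of rapamycin (0.54 and -0.20). Of 82 probe sets 71 were above the filter, and 22 genes had more than 1 of these. All probe sets of a gene gave the same call in 13 of the 22 for sensitive rapamycin against DMSO cells, in 9 for resistant against DMSO cells and in 12 for resistant against sensitive rapamycin cells, and in 0 of the 22 was one called higher and another lower. By the maker's naming, probe sets ending in _s_at or _x_at, among them the brightest ones of Becn1, Wipi1, Atg5, Pik3r4, Gabarapl1 and Map1lc3a, can also bind related transcripts.

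A second list of 48 genes that act around the core machinery also held more higher than lower calls after 24 h of rapamycin and more lower than higher calls in the resistant line. Of these, 47 were tested, and Bnip3l was not analysed here. With 24 h of rapamycin 17 were higher and 4 lower (44.7% called, against 35.6% of all genes), and without the third DMSO array 18 and 4. In resistant against DMSO cells 8 were higher and 23 lower (66% called, against 51.8% of all genes), and without that array 8 and 24. In resistant against sensitive rapamycin cells 6 were higher and 25 lower (66% called, against 56.5% of all genes), and 7 and 26 without it. The median changes were 0.19, -0.48 and -0.43. Among the receptors of endoplasmic reticulum turnover, Ccpg1 rose by 1.49 ± 0.16 (adjusted p = 8.36e-07) and Calcoco1 by 1.44 ± 0.12 (adjusted p = 4.31e-08) after 24 h of rapamycin, while neither passed in resistant against DMSO cells (-0.11 ± 0.16 and 0.13 ± 0.12, adjusted p = 0.581 and 0.407). Sec62 and Tex264, of the same class, rose by 0.58 ± 0.08 and 0.38 ± 0.09 after 24 h of rapamycin and were lower in resistant than in DMSO cells (-0.62 ± 0.08 and -0.48 ± 0.09). Retreg1, also of this class, went the other way in the resistant line, with changes of 0.44 ± 0.08 after 24 h of rapamycin, 0.72 ± 0.08 in resistant against DMSO cells (adjusted p = 5.08e-07) and 0.28 ± 0.08 between resistant and sensitive rapamycin cells (adjusted p = 0.00504). Retreg1 and Tex264 were named after their values were seen. Between resistant and sensitive rapamycin cells Sec62 changed by -1.20 ± 0.08. Trp53inp1 and Trp53inp2, which bind Atg8 proteins, had the largest gaps between resistant and sensitive rapamycin cells (-2.83 ± 0.31 and -2.35 ± 0.10). Trp53inp1 had a mean signal of 14.2 in resistant cells, under the filter limit of 22.2, where the added 16 limits the change.

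Further genes of this list were lower in the resistant line. Vamp8, a SNARE of autophagosome fusion with the lysosome, changed by -1.73 ± 0.08 against DMSO cells (adjusted p = 4.52e-12) and did not pass in sensitive rapamycin cells (-0.08 ± 0.08, adjusted p = 0.47). Atg4a, the remaining Atg4 protease, had -1.65 ± 0.16 (adjusted p = 1.17e-07) against DMSO cells and 0.05 ± 0.16 (adjusted p = 0.85) in sensitive rapamycin cells. Dram2, a lysosomal membrane protein, was at -1.24 ± 0.09 against DMSO cells, and Epg5, a tether for fusion, at -0.96 ± 0.17. Wdr45, the WIPI4 gene, changed by -1.18 ± 0.10 between resistant and sensitive rapamycin cells, and Zfyve1, a PI3P-binding protein of the forming autophagosome, was at -1.28 ± 0.20. Higher in the resistant line were Prkaa2, the alpha 2 catalytic subunit of the energy sensor AMPK (1.34 ± 0.23 against DMSO cells, adjusted p = 7.43e-05), Phb2, a prohibitin of mitochondria (0.71 ± 0.08), and Nufip1, which takes part in ribosome turnover (0.58 ± 0.13). Phb2 and Nufip1 fell with 24 h of rapamycin, at -0.31 ± 0.08 and -0.49 ± 0.13.

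Of the transcription factors that drive autophagy and lysosome genes, Tfeb passed in no comparison (-0.15 ± 0.32, -0.49 ± 0.32 and -0.34 ± 0.32), Tfe3 was lower in resistant than in DMSO cells (-0.82 ± 0.11, adjusted p = 6.86e-06), and so was Mitf (-0.67 ± 0.18, adjusted p = 0.00395). Neither Tfe3 (-0.09 ± 0.11, adjusted p = 0.586) nor Mitf (-0.35 ± 0.18, adjusted p = 0.144) passed after 24 h of rapamycin. Foxo1 rose in sensitive rapamycin cells (0.49 ± 0.11, adjusted p = 0.00228) and was lower in resistant than in DMSO cells (-0.82 ± 0.11, adjusted p = 8.38e-06), whereas Foxo3 was higher than in DMSO cells in resistant cells (1.07 ± 0.21, adjusted p = 0.000326) and in sensitive rapamycin cells (1.10 ± 0.21, adjusted p = 0.000433). Rptor, the subunit that gives mTOR complex 1 its substrates, passed in no comparison, with changes between -0.001 and 0.10, and Mtor was higher in resistant than in DMSO cells (0.60 ± 0.13).

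Promoters of the set were searched for the letters that such factors are known to bind, since several members moved together. RefSeq promoters of build GRCm38.p6, 250 bases before to 50 bases after the annotated start, were matched for 28 of the 34 genes. Promoters on a single chromosome were not analysed, so its genes count neither among the 28 nor among all genes here. On either strand, the E-box CACGTG, which is contained in the longer forms, was found in 4 of 28 genes (14.3%), against 8.09% of all 27025 genes searched. TCACGTGA was found in 1 gene, Atg3 (3.57%, against 1.12% of all genes), and the full CLEAR palindrome, the lysosomal form with 1 more base at either end, in 0 of 28, against 0.37% of all genes. The forkhead motif TGTTTAC was found in 0 of 28, against 4.05% of all genes. All 4 genes with an E-box are shown, whatever their role, with CACGTG in capitals and each window read 5′ to 3′ on the gene's strand.
Atg14, chr14:47568410-47568470, minus strand: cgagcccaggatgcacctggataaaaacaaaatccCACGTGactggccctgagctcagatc
Atg3, chr16:45158700-45158798, plus strand: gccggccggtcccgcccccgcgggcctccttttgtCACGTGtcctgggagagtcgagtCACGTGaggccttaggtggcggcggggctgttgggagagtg
Atg5, chr10:44268290-44268363, plus strand: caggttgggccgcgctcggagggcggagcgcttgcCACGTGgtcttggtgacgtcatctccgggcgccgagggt
Atg7, chr6:114670929-114671004, plus strand: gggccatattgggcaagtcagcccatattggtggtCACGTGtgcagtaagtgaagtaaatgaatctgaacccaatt

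The motif begins 1 base before the annotated start in Atg14, 14 bases before it in Atg5, 132 bases before it in Atg7, and 94 and 71 bases before it in Atg3. These 4 genes did not move together: with 24 h of rapamycin Atg14 changed by 1.23, Atg3 by -0.37, Atg5 by -0.39 and Atg7 by 0.20 (adjusted p = 0.374 for Atg7). Among the genes that separated the 3 groups without overlap, Atg14 had an E-box, while Ulk2, Wipi1, Vmp1, Gabarap and Sqstm1 had none of the searched letters in these windows. No match was found for Rb1cc1, Map1lc3a or Map1lc3b either, and whether these had a promoter to search is not given here. A match is a description of the letters and not of a bound factor.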

How the data were processed

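The authors deposited linear intensities, 1 for each probe set on each array. GCOS 1.4 is named in the submitters' processing notes, while its summary algorithm was not given in the sources used here, and neither were scan batches. In the file every array's mean, leaving out 2% of values at either end, is 250. The platform annotation gave 1 gene symbol to 34945 of the 45101 probe sets, several to 932 and none to 9160, and 64 were control probe sets.

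Values were analysed as log2(signal + 16) and kept as deposited, since the arrays' 75th percentiles differed by 0.17, and adding 16 understates the change of a dim gene. The filter kept probe sets whose mean exceeded the 40th percentile (signal 22.2), and the brightest stood for its gene. All 9 arrays entered 1 model in limma 3.58.1 under R 4.3.3 (eBayes with a trend), with Benjamini-Hochberg adjustment over 12715 genes per comparison. Every adjusted p is limma's, and a value with ± is a log2 change and its standard error (n = 3 arrays per group). Values of second probe sets come from a separate fit without the choice of 1 per gene. Averages of a gene's probe sets gave dim and bright ones above the filter equal weight. The number of arrays limits the precision.

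The members, lists and rules were chosen with earlier results of these data known. Signals were printed for every array for the 16 members with a called change of at least 0.8 in any comparison and for members of the same role that went the opposite way. Other autophagy genes were named at a called change of at least 1, with 7 regulators whatever their result. Replicate numbers did not pair arrays, since deviations of same-numbered arrays from their group means correlated between -0.08 and 0.02.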

Additional observations from a re-analysis of the deposited data

How the results depend on the processing

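Alternatives were a pseudocount of 1 or 64, no filter on dim probe sets, centring on the 75th percentile, quantile normalization, averaging of a gene's probe sets, eBayes without a trend, the replicate number as a block, only the 6 arrays compared, and each array left out in turn. Over these 18 alternatives, 12 of 19 called genes kept their call in every one for sensitive rapamycin against DMSO cells, 13 of 21 for resistant against DMSO cells and 18 of 23 for resistant against sensitive rapamycin cells, and no called gene changed sign. Requiring a change of at least 0.6 as well left 6 members higher and 1 lower in sensitive rapamycin against DMSO cells. In resistant cells it left 1 higher and 9 lower against DMSO cells, and 2 higher and 14 lower against sensitive rapamycin cells. Of the other autophagy genes 8 were then higher and 0 lower in sensitive rapamycin against DMSO cells. In resistant cells 6 of these were higher and 17 lower against DMSO cells, and 4 higher and 22 lower against sensitive rapamycin cells. That the counts became smaller follows from the added limit, and the shares of all genes under it are not given here. The 5 members higher in resistant than in DMSO cells became 2 with averaged probe sets and 3 with the replicate block, and between 3 and 5 when 1 array was left out; the cause was not tested. With the replicate block 16 members were higher and 2 lower in sensitive rapamycin against DMSO cells, 3 and 15 in resistant against DMSO cells, and 4 and 19 in resistant against sensitive rapamycin cells. Correlations of same-numbered arrays ran from -0.08 to 0.02, and 0 of 9 arrays correlated best with their own number. Dim genes had wide errors, with an SE of 0.29 for Atg10 and 0.26 for Atg2a.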
